A study of Mus musculus with 6 samples.

Results

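The genes described here are 35 genes of glycolysis, the breakdown of glucose to pyruvate and lactate, and of the response to low oxygen. They were chosen by name, with earlier results of these data known. A gene was represented by the probe set that names its symbol alone and has the highest mean signal, and 32 of the 35 had one, out of 18194 genes so represented on the array. Gpi1, Eno1 and Bnip3l had none and were not analysed here. The samples are mouse tumour cells from the ovarian surface epithelium, which forms the outer lining of the ovary. The mice were of a mixed background strain, and the cells were freed by trypsin, plated and harvested before any passage. Messenger RNA was measured on 6 one-colour Affymetrix arrays, 2 in each of 3 groups: cells with wild-type p53 from animals of 9 weeks, cells heterozygous for the p53 mutation R172H from animals of 9 and 12 weeks, and cells homozygous for R172H from animals of 4 weeks. Age and homozygosity therefore cannot be told apart. The labels do not say whether the arrays of a group came from separate animals or cultures, so the p-values measure the spread between these arrays, which may be technical.

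In low oxygen the factor Hif1a escapes the prolyl hydroxylases (Egln genes) that mark it for destruction, and it then turns on genes of glucose use, pH control, blood vessel growth and mitochondrial turnover. Glycolytic enzymes are also kept high in dividing cells by other regulators, so they respond to low oxygen without depending on it. Wild-type p53 is known to restrain glucose uptake and glycolysis in several cell types, and tumours of the ovary often contain poorly oxygenated regions.

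Hif1 binds the letters ACGTG or GCGTG in DNA. The 250 bases before the start site, taken from RefSeq promoter windows on GRCm38.p6, are shown for 3 members whose signal was lower in homozygous cells (Car9, chr4:43506776-43507025, plus strand; Bnip3, chr7:138909507-138909756, minus strand; Aldoc, chr11:78322823-78323072, plus strand, the first of 2 listed starts) and for Pgk1 (chrX:106186850-106187099, plus strand), a glycolytic enzyme whose difference did not pass the test. Capitals mark each match on either strand.
Car9: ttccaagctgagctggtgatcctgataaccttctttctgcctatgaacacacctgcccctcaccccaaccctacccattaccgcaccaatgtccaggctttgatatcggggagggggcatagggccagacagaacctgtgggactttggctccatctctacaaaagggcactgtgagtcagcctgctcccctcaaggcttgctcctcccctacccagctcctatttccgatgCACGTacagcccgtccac
Bnip3: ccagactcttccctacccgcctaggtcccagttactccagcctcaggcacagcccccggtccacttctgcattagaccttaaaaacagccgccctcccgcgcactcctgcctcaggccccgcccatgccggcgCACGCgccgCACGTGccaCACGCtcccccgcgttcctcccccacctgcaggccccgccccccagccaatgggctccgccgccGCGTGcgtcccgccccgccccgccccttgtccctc
Aldoc: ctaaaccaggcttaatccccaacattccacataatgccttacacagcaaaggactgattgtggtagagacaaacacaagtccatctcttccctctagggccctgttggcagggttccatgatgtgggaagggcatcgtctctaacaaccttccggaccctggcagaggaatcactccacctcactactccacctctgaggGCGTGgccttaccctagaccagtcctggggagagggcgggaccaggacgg
Pgk1: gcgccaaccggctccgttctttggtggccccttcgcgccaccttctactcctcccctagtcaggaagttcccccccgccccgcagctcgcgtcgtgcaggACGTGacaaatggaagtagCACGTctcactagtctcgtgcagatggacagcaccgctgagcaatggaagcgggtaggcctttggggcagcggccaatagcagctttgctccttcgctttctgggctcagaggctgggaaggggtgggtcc
A CACGTG holds a match on each strand and counts as 2. By this count the window of Car9 held 1 match, that of Bnip3 5, that of Aldoc 1 and that of Pgk1 2. Windows were found for 31 of the 35 genes, and 28 of the 31 held a match at 1 or more listed starts, against 41.5% of 27025 genes and 38.6% of 32851 windows in the table. All 4 non-glycolytic targets with a window and 11 of 14 glycolytic enzymes held one. The GC content was 56.4% for Car9, 72.4% for Bnip3, 55.2% for Aldoc and 62.8% for Pgk1, with a median of 52.4% over all windows. A match is a run of letters and is not a measured binding site.

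In homozygous R172H cells 4 of 12 measured members induced by low oxygen outside glycolysis, and 1 of 12 measured glycolytic enzymes, fell against wild-type cells. All 32 measured members passed the filter on dim genes. Of them 5 fell and 0 rose (limma with Benjamini-Hochberg adjustment over 10916 genes, called at an adjusted p under 0.05), against 2.25% of all tested genes lower and 0.412% higher. At an unadjusted p under 0.05, 9 members were lower, against 17.2% of all tested genes. The 5 were Car9, Ndrg1, Bnip3 and Ndufa4l2, 4 of the 6 genes listed as non-glycolytic targets, and the enzyme Aldoc. Of the 6 other hypoxia-induced genes 0 passed. The median log2 difference was -3.52 for the 6 targets, -1.35 for these 6 together with the 6 other hypoxia-induced genes, -0.11 for the 12 enzymes and -0.09 for all tested genes. With each array centred on its median the values for targets, enzymes and all genes were -3.21, 0.20 and 0.22, so the small value of the enzymes followed that of all genes in both scalings and changed sign with it.

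**Figure D1:**
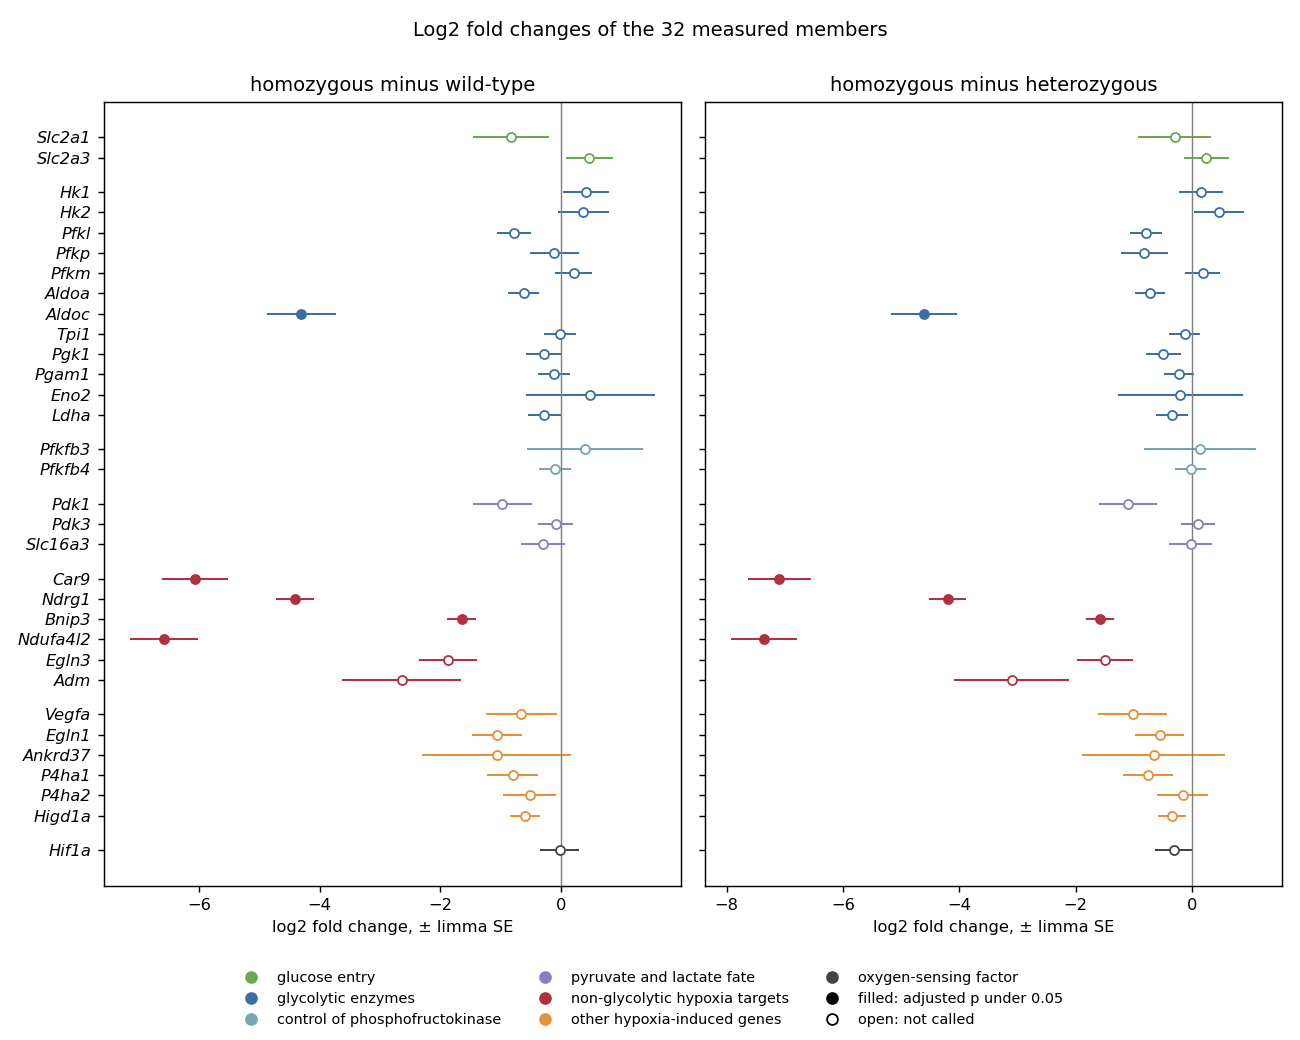
Log2 fold change (horizontal axis) with its limma standard error for each of the 32 measured members, homozygous minus wild-type cells on the left and homozygous minus heterozygous cells on the right, coloured by role. Filled points (Car9, Ndrg1, Bnip3, Ndufa4l2 and Aldoc in both panels) passed the test, and the other glycolytic enzymes lie between -0.82 and 0.49.

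Car9 encodes a carbonic anhydrase of the cell surface that exports acid. The 2 wild-type arrays gave it signals of 2515 and 7434, the heterozygous arrays 8013 and 9725, and the homozygous arrays 56.3 and 73.9. Both homozygous arrays lay far below the other 4. It fell by 6.07 ± 0.54 (SE) on the log2 scale against wild-type cells (adjusted p = 0.0171), which is 67.1-fold.

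Ndrg1 encodes a cytoplasmic protein induced by stress and differentiation. Its signal was 13647 and 11556 in wild-type, 13858 and 8631 in heterozygous, and 652 and 541 in homozygous arrays. It fell by 4.40 ± 0.31 (adjusted p = 0.0136), or 21.1-fold, and all 5 of its probe sets were lower, by values from -4.53 to -3.82. The wild-type and heterozygous arrays overlapped.

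Ndufa4l2 encodes a mitochondrial protein that lowers the use of oxygen by the respiratory chain. Its signal was 422 and 482 in wild-type arrays and 433 and 1379 in heterozygous arrays. Both homozygous arrays, at 5.2 and 4.3, lay under the background level of 24.5, the highest signal of the bacterial Trpn control probe sets. Against that level Ndufa4l2 was at least 18.4-fold lower than in wild-type and at least 31.5-fold lower than in heterozygous cells (adjusted p = 0.0171 and 0.0150 by limma).

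Bnip3 encodes a protein of the outer mitochondrial membrane that marks mitochondria for autophagy. It measured 7394 and 6535 in wild-type, 7555 and 5911 in heterozygous, and 2174 and 2289 in homozygous arrays. The arrays of each group lay close together. Bnip3 fell by 1.64 ± 0.24 (adjusted p = 0.0435), or 3.12-fold, the smallest of the 5 falls. With median-centred arrays it did not pass (-1.33, adjusted p = 0.0731), nor with a spread differing between groups (0.0654). With the mean of all probe sets it did not pass either (0.0536). Bnip3 has 1 probe set, so its own difference was unchanged in that setting.

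The other 2 targets were lower in both homozygous arrays than in the other 4 but did not pass the test. Egln3, a hydroxylase that is itself induced by low oxygen, measured 7385 and 3805 in wild-type, 4691 and 3606 in heterozygous, and 2021 and 1044 in homozygous arrays (log2 difference -1.87 ± 0.48 against wild-type, adjusted p = 0.0900). Adm, the secreted vessel-dilating peptide adrenomedullin, had 999 and 202, 381 and 1007, and 41.2 and 126 (-2.64 ± 0.99, adjusted p = 0.160). Both probe sets of each gene were lower.

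**Figure D2:**
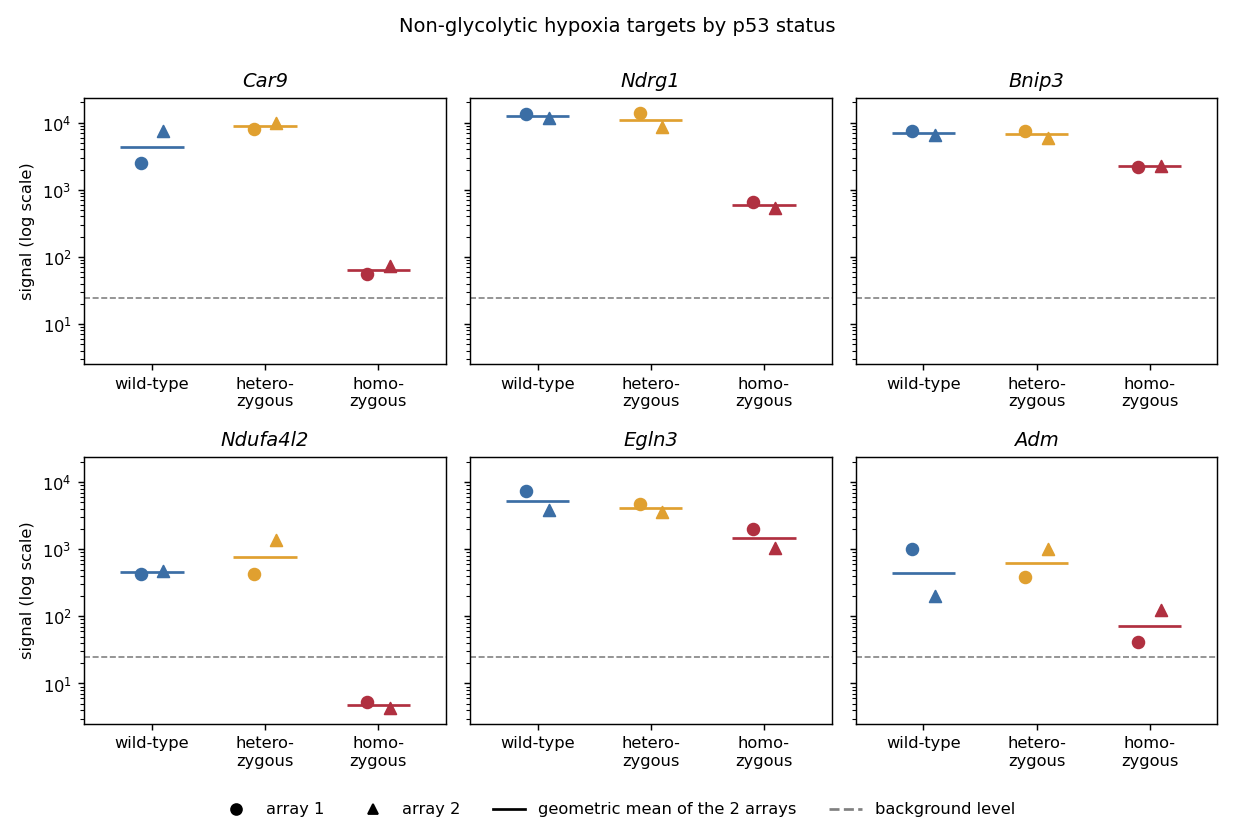
Signal on a log scale (vertical axis) of the 6 non-glycolytic hypoxia targets in each array by p53 status, with points for arrays, bars for the geometric mean of the 2 arrays of a group and a dashed line at the background level of 24.5. In each panel both homozygous arrays lie below the other 4, and those of Ndufa4l2 lie under background.

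Against heterozygous cells the same 5 genes fell and 0 members rose, while 3.22% of all tested genes fell and 0.870% rose. At an unadjusted p under 0.05, 9 members were lower, against 18.2% of all tested genes. The differences were -7.10 ± 0.54 for Car9 (adjusted p = 0.0150), -4.20 ± 0.31 for Ndrg1 (0.0150), -1.58 ± 0.24 for Bnip3 (0.0404, and 0.0685 with median-centred arrays and 0.0571 with a spread differing between groups) and -4.61 ± 0.57 for Aldoc (0.0311). Egln3 differed by -1.50 ± 0.48 (adjusted p = 0.114) and Adm by -3.10 ± 0.99 (0.114). The median was -3.65 for the 6 targets, -0.29 for the 12 enzymes and -0.08 for all tested genes. The comparison shares the homozygous arrays with the one against wild-type cells, so the values stand side by side and are not a second test.

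Against wild-type cells 0 members were called without wild-type array 1, wild-type array 2, heterozygous array 1 or heterozygous array 2, 7 without homozygous array 1 and 6 without homozygous array 2, while the median of the 6 targets stayed between -4.16 and -2.92. Against heterozygous cells the counts were 1, 1, 0, 0, 6 and 7 in that order. Leaving out a homozygous array leaves 1 in that group, assumed to vary like the other pairs, so the higher counts are no sign of stability. With no filter on dim genes 0 members were called in either comparison, and with only the 2 groups compared 0 and 1.

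The remaining 6 measured genes induced by low oxygen all had negative differences between homozygous and wild-type cells, with a median of -0.73, and 0 passed the limma test (1, Egln1, at an unadjusted p under 0.05). Vegfa, the main growth factor of blood vessels, measured 3325 and 2105 in wild-type, 2323 and 5010 in heterozygous, and 1095 and 2575 in homozygous arrays. The groups overlapped, and the difference against wild-type was -0.66 ± 0.59. Egln1, the main hydroxylase that marks Hif1a in normal oxygen, had 5466 and 2614, 2925 and 2433, and 1580 and 2077 (-1.06 ± 0.41, adjusted p = 0.169). Its homozygous arrays were below the other 4.

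P4ha1 and P4ha2 encode the catalytic subunits of the hydroxylase that stabilises collagen. P4ha1 gave 4363 and 4070 in wild-type, 4656 and 3599 in heterozygous, and 1625 and 3610 in homozygous arrays (-0.80 ± 0.43). Its homozygous array 1 was low, and array 2 overlapped with the heterozygous arrays. P4ha2 had 2010 and 1275, 1617 and 970, and 860 and 1460 (-0.51 ± 0.44), with overlapping groups.

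Higd1a, a small protein of the mitochondrial inner membrane, measured 11071 and 9653 in wild-type, 9694 and 7764 in heterozygous, and 6399 and 7336 in homozygous arrays (-0.59 ± 0.24). Its 2 dimmer probe sets gave larger differences, -2.46 and -2.49. Ankrd37, a repeat protein with a strong response to low oxygen, ranged from 92.9 to 1285 within the wild-type pair alone, and its difference was -1.06 ± 1.23. Hif1a itself, the oxygen-sensing factor, had 12257 and 12738 in wild-type, 11524 and 20193 in heterozygous, and 11863 and 12811 in homozygous arrays, a difference of -0.02 ± 0.33 with a 95% interval from -0.84 to 0.80. Its regulation is mostly at the level of the protein, which was not measured.

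Along the pathway itself, 11 of 12 measured glycolytic enzymes did not pass the test against wild-type cells, and their differences lay between -0.78 and 0.49. The 95% interval included 0 for 10 of these 11 and excluded a 2-fold fall for 6. At the first step Hk2, the inducible hexokinase of tumours, measured 4271 and 2185 in wild-type, 2282 and 3621 in heterozygous, and 4336 and 3620 in homozygous arrays (0.38 ± 0.42). Hk1, the constitutive form, had geometric means of 921, 1106 and 1230 in the same order (0.42 ± 0.38).

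Phosphofructokinase commits glucose to glycolysis, and its 3 isoforms differed in sign. Pfkl, the liver form, had 2378 and 2800 in wild-type, 2784 and 2427 in heterozygous, and 1812 and 1250 in homozygous arrays. Its homozygous arrays lay below the other 4, with a difference of -0.78 ± 0.28 (adjusted p = 0.150) and an interval from -1.49 to -0.07. Pfkp, the platelet form, had 1246 and 2334, 2916 and 2681, and 2005 and 1255 (-0.10 ± 0.41), and its homozygous arrays lay below the heterozygous ones (-0.82 ± 0.41, adjusted p = 0.235). Pfkm, the muscle form, had geometric means of 700, 715 and 812 (0.21 ± 0.30).

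The 2 measured aldolases parted. Aldoc, the isoform best known from brain, measured 13413 and 7000 in wild-type, 8333 and 17112 in heterozygous, and 698 and 345 in homozygous arrays. It fell by 4.30 ± 0.57 (adjusted p = 0.0360), or 19.8-fold. Its second probe set, at 967 and 369 in wild-type arrays, was under background in both homozygous arrays. Aldoa, the ubiquitous isoform, had 19016 and 25432, 22054 and 25344, and 15379 and 13421 (-0.61 ± 0.26, adjusted p = 0.189). Its homozygous arrays were below the other 4, and all 5 of its probe sets were lower by between -0.83 and -0.56, though the probes of these sets may also match other transcripts.

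Further down the pathway, Pgk1, which makes the first ATP of glycolysis, had 17706 and 23771 in wild-type, 20845 and 27260 in heterozygous, and 19628 and 14645 in homozygous arrays (-0.28 ± 0.30, interval from -1.04 to 0.49). Of its 2 other probe sets 1 gave -0.23 and 1 gave -1.12. Ldha, which turns pyruvate into lactate, had 15333 and 20903, 17721 and 20137, and 16809 and 13094 (-0.27 ± 0.28, interval from -0.97 to 0.43). For both genes the homozygous arrays overlapped with the wild-type arrays and lay below the heterozygous arrays (-0.49 ± 0.30 for Pgk1 and -0.35 ± 0.28 for Ldha against heterozygous cells, neither of which passed the test).

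Tpi1, the triose isomerase, had geometric means of 21759 in wild-type, 23554 in heterozygous and 21539 in homozygous cells (-0.01 ± 0.26). Pgam1, the phosphoglycerate mutase, had 11442, 12389 and 10601 (-0.11 ± 0.26). Eno2, the neuronal enolase, was dim, at 59.5 and 79.5 in wild-type, 48.7 and 253 in heterozygous, and 42.1 and 222 in homozygous arrays, and its difference of 0.49 ± 1.07 could not be resolved at this spread.

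**Figure D3:**
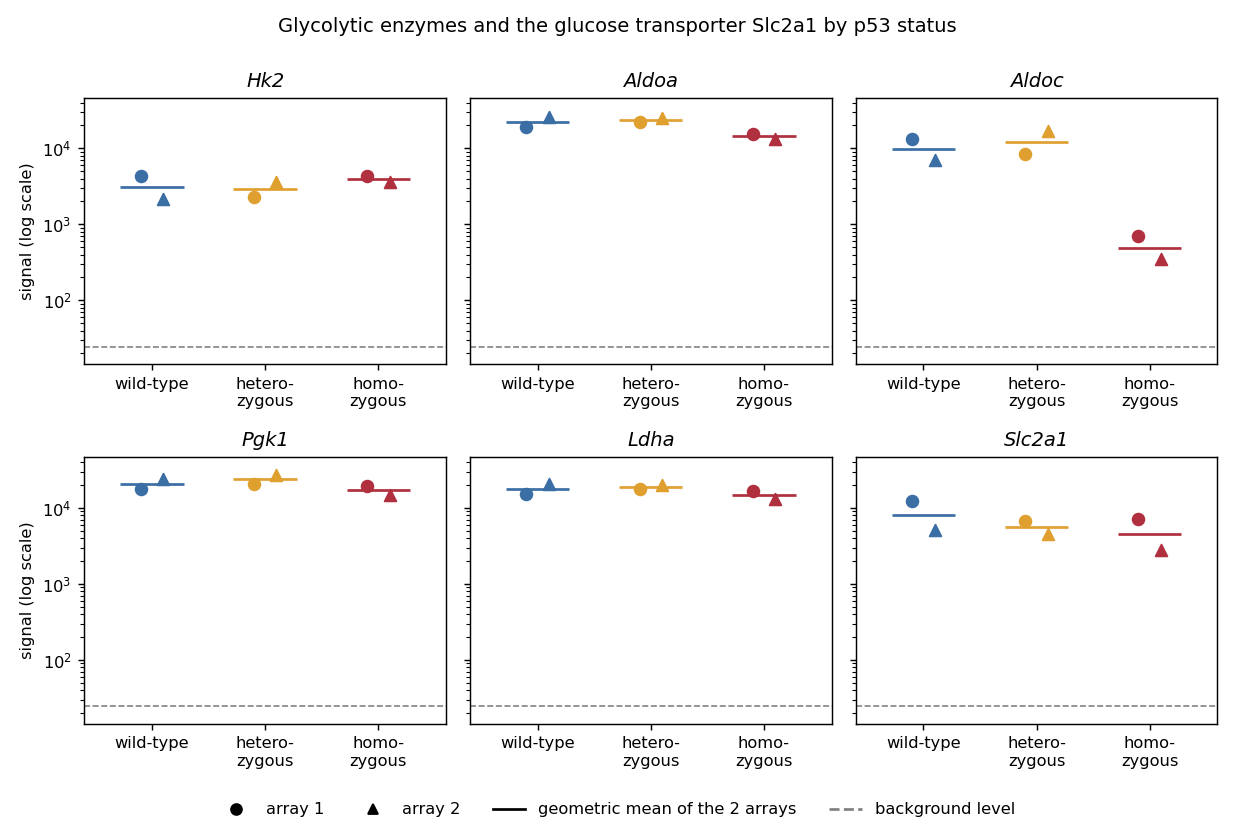
Signal on a log scale (vertical axis) of 5 glycolytic enzymes and the glucose transporter Slc2a1 in each array by p53 status, with points for arrays, bars for the geometric mean of the 2 arrays and a dashed line at the background level. Aldoc falls from 9690 in wild-type to 491 in homozygous cells, whereas the homozygous arrays of Hk2, Pgk1, Ldha and Slc2a1 overlap with the wild-type arrays.

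Genes that feed and steer the pathway did not pass the test. Slc2a1, the basal glucose transporter, had 12378 and 5183 in wild-type, 6709 and 4556 in heterozygous, and 7197 and 2811 in homozygous arrays (-0.83 ± 0.63). Slc2a3, the high-affinity transporter, had geometric means of 2457, 2878 and 3417 (0.48 ± 0.38), and 2 of its 4 probe sets had the opposite sign. Both of these sets were under background in all arrays, except 1 of them at 26.9 in wild-type array 1. Pfkfb3 and Pfkfb4, which make the activator of phosphofructokinase, differed by 0.40 ± 0.97 and -0.10 ± 0.27.

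Pdk1 is a kinase that restrains the oxidation of pyruvate in mitochondria. It measured 3696 and 4091 in wild-type, 5032 and 3608 in heterozygous, and 3205 and 1234 in homozygous arrays. Both homozygous arrays were below the other 4, and the difference was -0.97 ± 0.50 (adjusted p = 0.254). Without homozygous array 1, where the spread comes from the wild-type and heterozygous pairs alone, Pdk1 passed at -1.66, as did Egln3 at -2.34. Without array 2 P4ha1 passed at -1.37. Pdk3, a related kinase, differed by -0.09 ± 0.29, and Slc16a3, which exports lactate, by -0.30 ± 0.37, with geometric means of 384, 318 and 312.

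Counted over all members, 12 of 32 had both homozygous arrays below the other 4 and 0 had both above, against 28.9% and 23.3% of all tested genes. These were the 6 non-glycolytic targets, Egln1, Higd1a, Pfkl, Aldoa, Aldoc and Pdk1. The 6 targets lay at a median of 0.95 to 1.44 on the log2 scale above each gene's own mean in the wild-type and heterozygous arrays, and at -2.73 and -2.30 in the homozygous arrays. The 12 enzymes ranged from -0.36 to 0.24 over the 6 arrays.

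**Figure D4:**
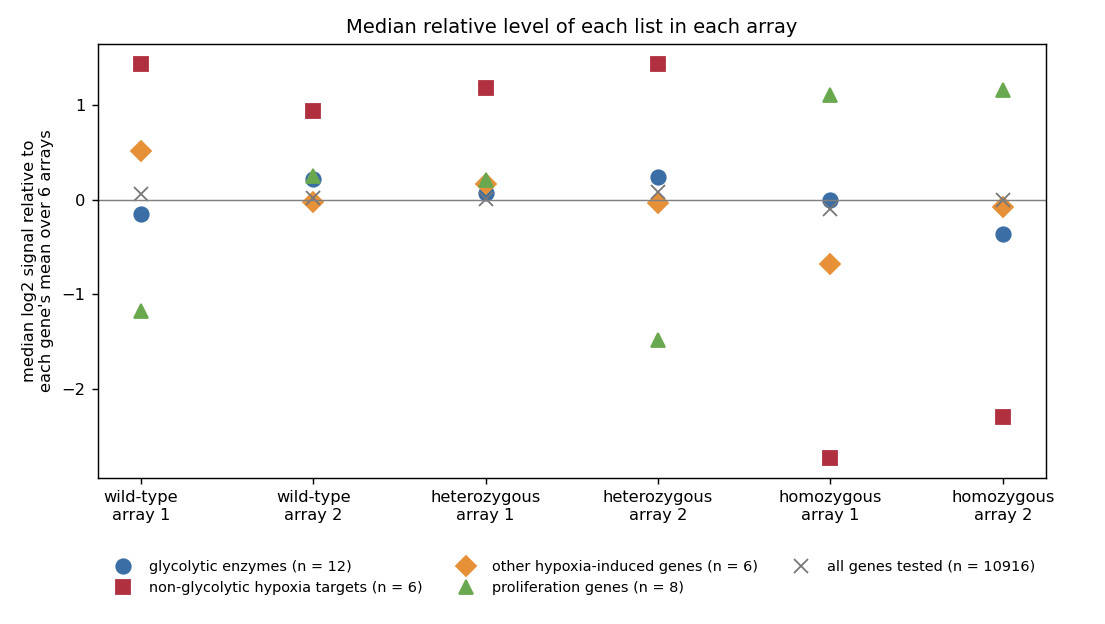
Median log2 signal of each gene list relative to each gene's mean over the 6 arrays (vertical axis) in each array (horizontal axis), for 12 glycolytic enzymes, 6 non-glycolytic hypoxia targets, 6 other hypoxia-induced genes, 8 proliferation genes and all 10916 tested genes. The targets drop to -2.73 and -2.30 in the homozygous arrays, the enzymes stay between -0.36 and 0.24, and the proliferation genes are at 1.11 and 1.16 in the homozygous arrays.

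No member passed the test between heterozygous and wild-type cells. Of the 32 members 0 had an adjusted p under 0.05 and 0 an unadjusted p under 0.05, against 0% and 0.650% of all tested genes. The median was 0.20 for the 6 targets, 0.11 for the 12 enzymes and 0.00 for all tested genes. Without wild-type array 2 the median of the targets was -0.23. The widest difference among the members was that of Car9, at 1.03 ± 0.54, where wild-type array 1 was low and both heterozygous arrays lay above both wild-type arrays. Of the 12 enzymes 11 had positive differences, against 8689 of all 18194 genes, and the highest was Pfkp at 0.71 ± 0.41. Without heterozygous array 2 the median of the enzymes was 0.01.

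Several members differed widely within a group. In wild-type cells array 1 was above array 2 for Ankrd37 (1285 and 92.9), Pfkfb3 (1371 and 239), Adm (999 and 202), Hk2 (4271 and 2185) and Vegfa (3325 and 2105). In heterozygous cells array 2 was above array 1 for these 5 genes, with Ankrd37 at 196 and 349 and Pfkfb3 at 400 and 1173. In homozygous cells they had no common order. These 5 genes were singled out after their values were seen. Of the 5, Ankrd37, Pfkfb3 and Adm were more than 1 apart on the log2 scale in the wild-type pair, and Hk2 and Vegfa were not. Slc2a1, Egln1 and Car9 were more than 1 apart too and did not reverse. Array 1 was higher in both groups for Slc2a1 and Egln1, and array 2 was higher in both for Car9. With narrower gaps, array 1 was also higher in both groups for Egln3, Slc16a3 and P4ha2. Aldoc reversed as the 5 genes did, and Pfkp reversed in the opposite order. Over all 10916 tested genes the deviations from the group mean correlated at -0.30 between wild-type and heterozygous cells. The arrays of a pair were more than 1 apart on the log2 scale for 6 of 32 members in wild-type, 6 in heterozygous and 9 in homozygous cells. Genes of cell division ran the other way from those 5 genes. Their median relative level was -1.18 in wild-type array 1 and 0.25 in array 2. In heterozygous cells it was 0.21 in array 1 and -1.49 in array 2. Heterozygous array 1 was of 9 weeks and array 2 of 12 weeks, so age and array cannot be told apart in that pair. Both wild-type arrays were of 9 weeks. The part of cell division genes or of age in these differences was not tested.

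**Figure D5:**
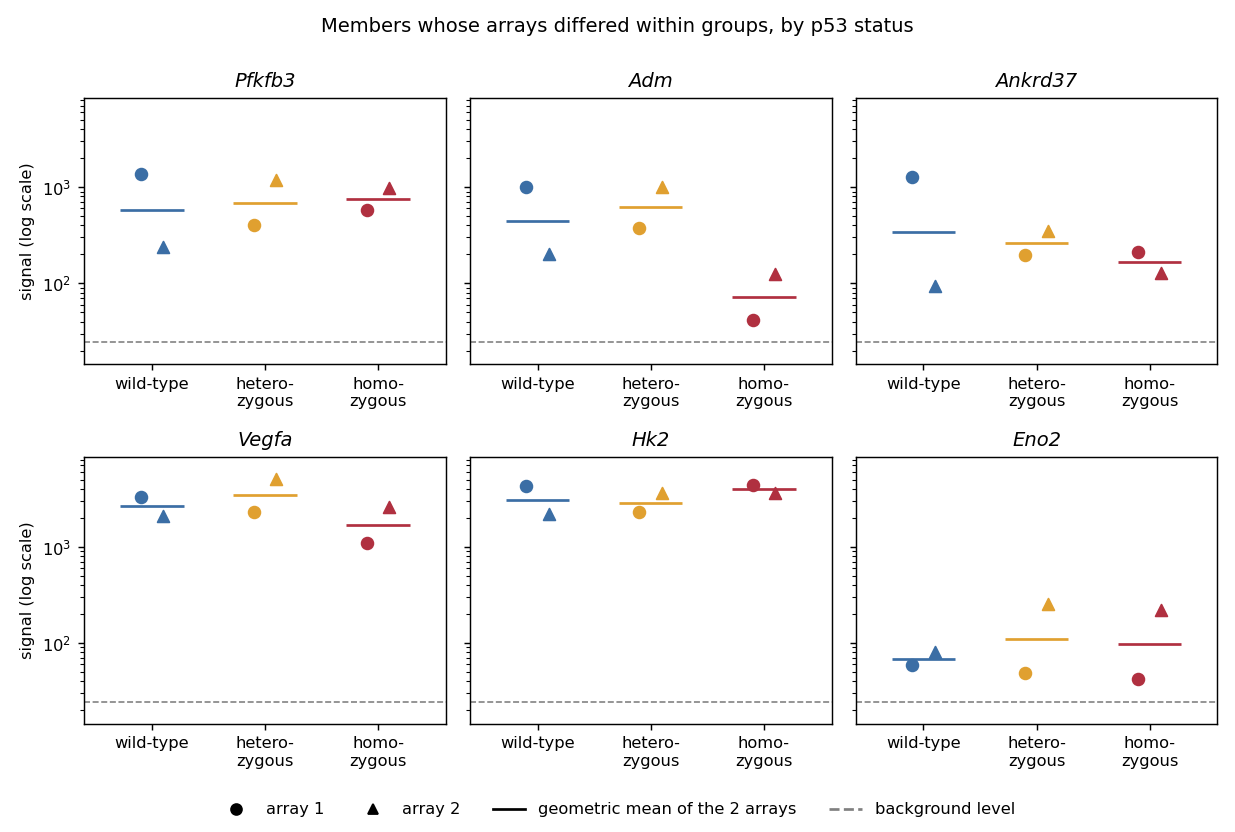
Signal on a log scale (vertical axis) of 6 members in each array by p53 status, with points for arrays, bars for the geometric mean of the 2 arrays and a dashed line at the background level. Wild-type array 1 and heterozygous array 2 lie above the other array of their group for Pfkfb3, Adm, Ankrd37, Vegfa and Hk2, and Eno2 differs most in the heterozygous and homozygous pairs.

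Neighbouring genes of these pathways were counted from lists made with the members, and each count of falls stands against 2.25% of all tested genes versus wild-type and 3.22% versus heterozygous cells. Of 14 tested other glycolysis and glycogen genes 0 passed against wild-type cells by limma. At an unadjusted p under 0.05, 4 were lower, where 17.2% of all tested genes were. At the same threshold 3 were higher, where 1278 of 10916 tested genes were. Against heterozygous cells 2 fell, Gbe1, the glycogen branching enzyme (-1.99 ± 0.27, adjusted p = 0.0362), and Pygl, a glycogen phosphorylase (-4.20 ± 0.73, 0.0489). Gapdh and Pkm, further core enzymes of the pathway, differed from wild-type cells by 0.08 ± 0.25 and 0.08 ± 0.36. The probe set used for Gapdh was the 5' control set of the array. Gpi1 and Eno1, also core enzymes, were not analysed. Of 14 tested pyruvate and lactate genes 1 fell, Pdk2, by 1.72 ± 0.26 against wild-type cells (adjusted p = 0.0448) and by 1.74 ± 0.26 against heterozygous cells (0.0404).

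Of 40 tested further genes reported to be induced by low oxygen, 3 fell and 0 rose against wild-type cells, where 2.25% of all tested genes fell and 0.412% rose, and their median was -0.63. They were the metallothioneins Mt1 and Mt2, which bind metals (-4.50 ± 0.40 and -4.32 ± 0.55, adjusted p = 0.0171 and 0.0326), and Ddit4, an inhibitor of mTOR signalling (-3.16 ± 0.43, 0.0370). Mt1 and Mt2 also respond to metals and Ddit4 to p53. Against heterozygous cells Fam162a fell as well, by 1.65 ± 0.26 (0.0410).

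Of 13 tested genes of the oxygen-sensing machinery 0 passed in either comparison with homozygous cells, and 3 (wild-type) and 1 (heterozygous) were lower at an unadjusted p under 0.05 by limma, against 17.2% and 18.2% of all tested genes. Epas1, the sister factor of Hif1a, had geometric means of 487 in wild-type, 402 in heterozygous and 229 in homozygous cells (-1.09 ± 0.32, adjusted p = 0.113). Vhl, which targets the hydroxylated factors for destruction, had 1298, 927 and 831. Of 11 tested metabolic genes linked to p53, 4 of which (Pgam1, Hk2, Slc2a1 and Slc2a3) are also described above, 1 fell, Lpin1, a regulator of fat metabolism, by 1.97 ± 0.30 (0.0446). Tigar, which lowers the activator of phosphofructokinase, had geometric means of 372, 273 and 706 (0.92 ± 0.35 against wild-type, adjusted p = 0.163), and Sco2, an assembly factor of the respiratory chain, 518, 561 and 605. Of 7 tested pentose phosphate genes 0 passed against wild-type cells by limma (2 were lower at an unadjusted p under 0.05) and 1, H6pd, fell against heterozygous cells by 1.98 ± 0.34 (0.0475).

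Markers of several cell types, but not of all, moved with the homozygous group too. The label of the cells was checked on 15 markers of the surface epithelium and mesothelium, whose summed signal lay between 149429 and 202663 in wild-type and heterozygous arrays and at 61471 and 77446 in homozygous arrays, with 0 markers under background in both arrays of a group. Of these 15 markers 2 fell against wild-type and 2 against heterozygous cells, against 2.25% and 3.22% of all tested genes. Their medians were -1.43 and -2.05, and both homozygous arrays lay below both arrays of the other group for 12 and 13 of them, against 33.8% and 34.2% of all tested genes. The summed signal of 15 macrophage markers was 2753 and 3409 in wild-type, 5883 and 6165 in heterozygous, and 764 and 768 in homozygous arrays, where 7 of them, Lyz2, Ctss and Ptprc included, lay under background. For 12 endothelial markers the ranges were 10966 to 11211, 9399 to 10731 and 2112 to 3037, with 2 under background in wild-type, 4 in heterozygous and 7 in homozygous cells. A sum is set mostly by its brightest markers. Of the 12, 9 were lower and 3 higher in homozygous than in wild-type cells. Against heterozygous cells 7 were lower and 5 higher, and only 5 of the 12 passed the filter on dim genes. Markers of granulosa and theca cells summed to between 3502 and 8470 in the wild-type and heterozygous arrays and to 770 and 2772 in homozygous arrays, and those of oocytes to between 862 and 2248 and to 150 and 181. Those of fibroblasts and stroma ranged from 22650 to 59271 in homozygous arrays and from 22968 to 39665 in the others. Smooth muscle markers summed to 11677 and 46941 in homozygous arrays and to between 21072 and 33630 in the others. Lymphocyte markers summed to 470 and 389 in homozygous arrays and to between 363 and 545 in the others. The 8 genes of cell division summed to 62669 and 70294 in homozygous arrays and to between 13284 and 39234 in the others. The log2 ratio of 3' to 5' actin signal, a sign of RNA quality, lay between 0.66 and 0.96 in the wild-type and heterozygous arrays, and the homozygous arrays had 0.59 and 0.39. The part of these changes in the results was not tested, and in bulk RNA fewer cells of a type and less RNA per cell cannot be told apart.

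The homozygous arrays differed from each other across all tested genes, with an SD of the log2 difference within the pair of 1.30, against 0.60 for the wild-type pair and 0.55 for the heterozygous one. For the 6 targets the median gap, which is not an SD, was 0.35 in the homozygous pair. It was 0.60 in the wild-type pair and 0.53 in the heterozygous one. Of the 19 members with several probe sets, 13 had the same sign in all of them against wild-type cells, and Slc2a3, Pfkp, Tpi1, Pfkfb3, Pdk1 and Hif1a did not. The median signal per array was lowest in the homozygous arrays, at 41.1 and 49.0, and lay between 49.7 and 60.6 in the others. With 2 arrays a group and no read counts behind the signals, precision is set by how many arrays there are.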

How the data were processed

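Total RNA of the 6 samples was labelled with biotin and hybridised to Affymetrix mouse arrays, per the labels' protocols. RMA is the method in the submitters' processing notes, with no version given. The deposited values are linear intensities of 45101 probe sets, and in each array the mean over the middle 96% of them is 500, a scaling that MAS 5.0 applies and RMA does not. Log2 differences of dim probe sets are noisy in such signals. A genotype label shared by all samples, and the transcript of the mutated gene, are not reported here. Where another label of the homozygous group disagreed with its titles on the gene, the titles were used.

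Gene symbols came from the platform's annotation, updated by Entrez identifier (34958 named 1 symbol, 932 several and 9211 none). Log2 was taken with no offset, and 1 probe set a gene, the one with the highest mean, was kept. The 10916 of 18194 genes at or above the 40th percentile of the mean (a signal of 60.2) entered a limma 3.58.1 fit (R 4.3.3) of 3 group means over 6 arrays without covariates, with two-sided moderated tests and Benjamini-Hochberg adjustment. The fit has 3 residual and 2.26 prior degrees of freedom. Errors are limma standard errors, with 95% intervals from the same fit. A median over a list has no test. The fit was first tested on simulated data. Plots used matplotlib 3.10.9 under Python 3.11.15. Every measured member is named, with all arrays for called members, the targets, a preset list and members with 1 group beyond the other 4 arrays. From related lists, at most 5 called genes each and 6 preset genes are named. The members and lists were chosen with earlier results of these data known. Alternatives changed the scaling, filter, offset, probe set choice, spread, arrays and replicate block.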

Additional observations from a re-analysis of the deposited data

How the results depend on the processing

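No called value changed sign under any alternative tried. Of the values of single members, 1442 kept their side of the threshold and 69 lost their call. Only the 5 members called in each comparison with homozygous cells could lose a call. Most of the 1442 were values that were not called in the main fit. Calls were gained only with a homozygous array left out. Against wild-type cells the 5 members called became 0 with no filter on dim genes, with only the 2 groups compared and with the replicate block, and ranged from 0 to 7 with 1 array left out. Against heterozygous cells the 5 became 0, 1 and 2 in the same 3 settings and ranged from 0 to 7. The median of the 6 targets was -2.95 and -3.37 with log2(signal + 32), and ranged from -4.16 to -2.92 and from -3.99 to -3.32 with 1 array left out. That of the enzymes was 0.20 and -0.062 with median-centred arrays, and ranged from -0.38 to 0.018 and from -0.56 to -0.22. Between heterozygous and wild-type cells the targets ranged from -0.23 to 0.46 and the enzymes from 0.01 to 0.29. The cause was not tested.

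Over all genes 291 were called against wild-type and 446 against heterozygous cells. The counts were 0 and 17 with no filter, 0 and 4 with only the 2 groups, 0 and 19 with the replicate block, 804 and 877 with log2(signal + 32), 686 and 809 with signals raised to background, and 190 and 281 with the mean of all probe sets. A filter at the 60th percentile gave 279 lower and 152 higher genes against wild-type cells, in place of 246 and 45, and median-centred arrays moved the median of all genes to 0.22 and 0.14. Calls numbered 194 and 293 with a spread differing between groups, 212 and 298 with median-centred arrays, and ranged from 0 to 2703 and from 0 to 2902 with 1 array left out. The replicate numbers do not pair the samples: deviations from the group mean correlated at -0.30, -0.10 and 0.16 between groups.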
